A study of Homo sapiens with 4 samples.

Results

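Transcripts of 10 genes of the neuronal cytoskeleton and of neuronal differentiation were followed in NGP cells exposed to Nutlin-3 or to its solvent. The genes were MAP1B, MAP2, DCX, STMN2, TUBB3, NEFL, NEFM, INA, GAP43 and ELAVL4. They were chosen by name, as the rows of the deposited count table whose Ensembl identifier carries one of these symbols, and all 10 were found among its 25693 human genes. Counts were summed over the columns named as treated and over those named as untreated, without the ERCC spike-in RNAs.

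NGP is an established human neuroblastoma line with amplified MYCN. The cells were synchronised by serum starvation and then given Nutlin-3 or ethanol for 24 h. Nutlin-3 blocks the binding of MDM2 to p53. There were 4 libraries, 2 for each treatment, which differed within a treatment in the dilution of the ERCC RNAs, 1000-fold in one and 10000-fold in the other. The columns of the table carry a word for the treatment and none for the library, so each treatment was 1 pool of 250 columns. No value below has a replicate, and every difference compares 1 pool with 1 pool.

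Microtubules and neurofilaments carry the shape of a neuron. Microtubules are polymers of alpha- and beta-tubulin, which associated proteins bind and stabilise and which stathmin proteins take apart. Neurofilaments are intermediate filaments built from several subunits, and they set the calibre of axons. Neuroblastoma arises from the sympathetic neuron lineage, and these genes are commonly used there to read how far cells have gone toward neurons.

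The ethanol pool held 1342134 human counts and the Nutlin-3 pool 1301232. Column totals fell into a large class, above 4000 counts, with 113 columns in each pool, and a small class with 137. Of the 250 column names in each pool, 219 occurred in both, including those of all 113 large columns, so a column is not shown to be 1 cell and is called a column here. Nutlin-3 response genes differed between the pools. CDKN1A, which encodes the cell cycle inhibitor p21, had 70 counts in ethanol against 188 in Nutlin-3, and MDM2 had 315 and 504. The 9 noradrenergic markers fixed for the line summed to 1480 CPM (counts scaled to a common total of human counts) in ethanol and 1694 in Nutlin-3. Of 8 Schwann and glial markers 3 were in the table and summed to 7.45 and 13.1 CPM, and 2 of 7 leukocyte and endothelial markers summed to 5.96 and 6.92. The mesenchymal list, 6 of 8 in the table, summed to 314 and 311 CPM, most of it from VIM, which neuroblastoma cells also express, with 276 and 277 counts.

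All 10 neuronal genes were detected in both pools, and on the pooled sums none differed between them by a log2 fold change of 0.5 or more. Of their counts 76.9% in ethanol and 76.5% in Nutlin-3 came from large columns, most of which held a single count of a gene. Whether this limited the pooled folds was not tested. Under Nutlin-3 the large-column sum of CDKN1A rose from 67 to 143 and that of MDM2 from 227 to 377. Of the 14759 genes tested in large columns 16.3% reached 0.5 in either direction. In the small columns DCX had a log2 fold change of 0.57 and GAP43 one of -0.89, both with counting intervals that included 0. Over all columns the 10 genes together took 1907 counts in ethanol, or 1421 CPM (95% exact Poisson interval 1358 to 1486), and 1899 in Nutlin-3, or 1459 CPM (1394 to 1527). Their summed level in Nutlin-3 relative to ethanol was 0.04 on the log2 scale (95% counting interval -0.05 to 0.13). MAP1B was the most abundant and TUBB3 the least. All intervals assume independent counts, cover counting error only and hold no variation between cultures. In the large columns the counts varied less between columns than Poisson counts would, and the intervals do not measure that spread. The variance over the mean there was 0.10 in ethanol and 0.09 in Nutlin-3 for GAP43, 0.42 and 0.45 for TUBB3, and 0.59 and 0.58 for MAP1B.

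MAP1B, a microtubule-associated protein of growing axons, had 338 counts in ethanol (303 to 376), or 252 CPM, and 318 in Nutlin-3 (284 to 355), or 244 CPM. It ranked 133 among the 25693 genes by mean CPM. ELAVL4, an RNA-binding protein of neurons that binds AU-rich messages, followed with 183 CPM in ethanol and 207 in Nutlin-3. STMN2, the neuronal stathmin, had 183 and 198 CPM. These 3 genes were the top of the set in both pools.

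INA, the neurofilament subunit alpha-internexin, had 147 CPM in ethanol and 163 in Nutlin-3. DCX, a microtubule-binding protein of migrating neurons, had 144 and 164 CPM. NEFM and NEFL, the medium and light neurofilament subunits, were lower, at 127 and 115 CPM and at 106.5 and 109.9 CPM. Thus INA, DCX and the 2 other neurofilament subunits formed the middle of the order, together with MAP2, the classical microtubule-associated protein of dendrites, at 116 and 111 CPM.

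GAP43, a membrane protein of growth cones, had 112 CPM in ethanol and 98.4 in Nutlin-3. TUBB3, the beta-tubulin whose protein is widely used as a neuronal marker, was last. Its level was 50.7 CPM (39.3 to 64.2) under ethanol, 48.4 CPM (37.2 to 61.9) under Nutlin-3, and its rank 8880. Neighbours in the order mostly overlapped in their Poisson intervals. GAP43 and TUBB3 did not overlap in either pool. MAP1B and ELAVL4 did not overlap in ethanol, and DCX and NEFM did not in Nutlin-3. Since the kit reads the 3' end of polyadenylated RNA, levels are per counted transcript end and were not divided by length.

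**Figure D1:**
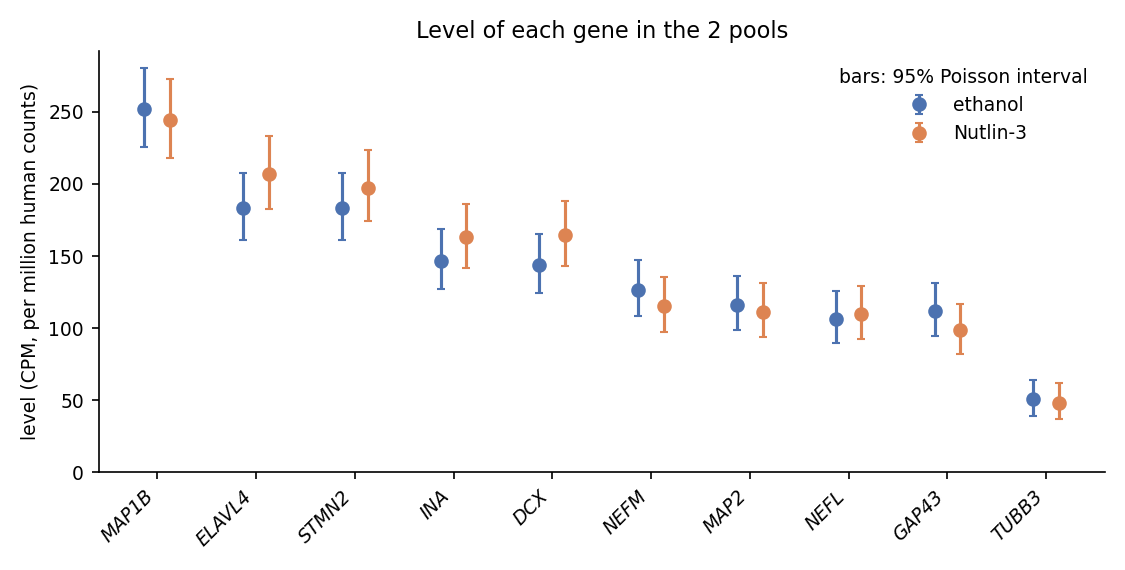
Level of each of the 10 genes in CPM (vertical axis) in the ethanol pool and the Nutlin-3 pool, with 95% exact Poisson intervals that cover counting error only. MAP1B is highest at 252 and 244 CPM, TUBB3 lowest at 50.7 and 48.4, and the intervals of the pools overlap for every gene.

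The promoter windows of the genes at the ends of the order by level, MAP1B and TUBB3, and at the ends of the order by difference between the pools, DCX and GAP43, are printed to set letters beside these values. They are RefSeq windows on GRCh38.p14, 250 bases before to 50 after the transcript start, given 5′ to 3′ on the gene's strand. Of the 10 genes 7 had windows in the RefSeq table. Where a gene had several, the one with most GENCODE release 29 transcripts starting within 100 bases was taken, and the first listed for MAP1B, where there were 0. Capitals mark the GC box, spelled GGGCGG, the CCAAT box by those letters, the TATA box, spelled TATAAA, and the E-box, spelled CANNTG, of which CACGTG is one form. Both strands were searched. The windows are chr5:72107225-72107524 on the plus strand for MAP1B, chr16:89923092-89923391 on the plus strand for TUBB3, chrX:111412143-111412442 on the minus strand for DCX and chr3:115623260-115623559 on the plus strand for GAP43.
MAP1B: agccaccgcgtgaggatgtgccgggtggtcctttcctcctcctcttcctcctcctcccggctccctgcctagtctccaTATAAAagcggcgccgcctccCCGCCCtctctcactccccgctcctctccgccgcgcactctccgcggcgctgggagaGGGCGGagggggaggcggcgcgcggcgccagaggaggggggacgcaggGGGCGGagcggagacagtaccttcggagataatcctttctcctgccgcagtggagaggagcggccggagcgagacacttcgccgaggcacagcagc
TUBB3: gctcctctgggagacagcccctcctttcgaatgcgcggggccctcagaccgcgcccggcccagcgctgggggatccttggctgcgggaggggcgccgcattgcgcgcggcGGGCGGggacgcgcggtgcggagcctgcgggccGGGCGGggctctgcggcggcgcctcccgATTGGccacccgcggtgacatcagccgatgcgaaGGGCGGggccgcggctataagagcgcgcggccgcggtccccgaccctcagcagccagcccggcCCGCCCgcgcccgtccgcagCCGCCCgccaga
DCX: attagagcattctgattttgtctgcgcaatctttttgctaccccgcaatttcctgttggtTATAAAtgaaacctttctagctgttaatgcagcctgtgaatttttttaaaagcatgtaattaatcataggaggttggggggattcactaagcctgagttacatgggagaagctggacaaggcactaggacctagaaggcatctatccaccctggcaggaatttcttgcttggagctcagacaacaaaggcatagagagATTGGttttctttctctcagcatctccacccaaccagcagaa
GAP43: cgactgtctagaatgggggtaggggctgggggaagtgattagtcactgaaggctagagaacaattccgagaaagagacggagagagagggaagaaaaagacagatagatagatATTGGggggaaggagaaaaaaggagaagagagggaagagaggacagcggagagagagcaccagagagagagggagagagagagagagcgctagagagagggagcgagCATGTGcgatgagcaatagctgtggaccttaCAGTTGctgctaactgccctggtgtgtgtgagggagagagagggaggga
The window of MAP1B held 3 GC boxes and 1 TATA box, and 70.0% of its bases were G or C. That of TUBB3 held 5 GC boxes and 1 CCAAT box at 79.0% G or C. The windows of DCX (43.0% G or C) and GAP43 (52.7%) held 0 GC boxes, DCX had 1 CCAAT box and 1 TATA box, and GAP43 had 2 E-boxes and 1 CCAAT box. Among all 35116 windows of this length in the table, 45% held a GC box, 34.6% a CCAAT box, 11.5% a TATA box and 68.7% an E-box, and the median G or C content was 58.7%. The p53 half-site was found in 0 of the 7 chosen windows, in 2 of all 19 windows that the table gives for these genes, and in 6.63% of all windows. The MYC-type E-box CACGTG was in 0 of the 7, in 1 of the 19 and in 7.26%. These are matches of letters and say nothing about which factors bind.

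The level of a gene depended on the class of columns in which it was read. A gene with 1 count in each of the 226 large columns would have 96.1 CPM there. The levels of 9 of the 10 genes in the large columns lay above that value, as did those of 13.5% of all 25693 genes. The 9 ran from 102.5 CPM for GAP43 and NEFL to 196 CPM for MAP1B, a span of 1.91-fold. In the small columns the same 9 genes ran from 127 CPM for GAP43 to 670.3 CPM for MAP1B, a span of 5.30-fold. The order of the genes was similar in the classes, and the distances between them were wider in the small columns.

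The genes at the top were several times higher in the small columns than in the large ones. ELAVL4 had 537 CPM in the small and 152 in the large columns, a ratio of 3.53 (95% counting interval 2.90 to 4.26). The ratio was 3.43 (2.88 to 4.06) for MAP1B and 3.35 (2.75 to 4.07) for STMN2. It was 2.65 (2.10 to 3.33) for DCX and 2.47 (1.94 to 3.11) for INA. For the genes of lower level it was smaller, 1.74 (1.28 to 2.33) for NEFM, 1.56 (1.13 to 2.13) for MAP2, 1.50 (1.07 to 2.07) for NEFL and 1.23 (0.849 to 1.75) for GAP43.

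TUBB3 went the other way. It had 129 counts in the large columns and 2 in the small ones, a ratio of levels of 0.125 (0.0149 to 0.459). MAP1B exceeded TUBB3 3.57-fold (2.93 to 4.37) in the large columns and 98.0-fold (26.8 to 815) in the small ones. Among other genes, too, the ratio rose with the level in the large columns. The median ratio was 0.326 over the 1877 genes with 100 to 150 counts in the large columns, where TUBB3 lay at 129, with 10% of them below 0.144 and 10% above 0.562. For the 285 genes with 300 to 400 counts, where INA, DCX, STMN2 and ELAVL4 lay, the median was 2.99. A further 99 genes had 400 to 600 counts, as MAP1B did, and a median of 3.37. The median was 0.989 for the 2373 genes with 220 to 250 counts, where GAP43 and NEFL lay. For the 1212 genes with 250 to 300 counts, where NEFM and MAP2 lay, it was 1.80. TUBB3 lay within the lowest 10% of its band. The ratios of NEFL and ELAVL4 lay within the highest 10% of theirs, above 1.40 and 3.38.

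**Figure D2:**
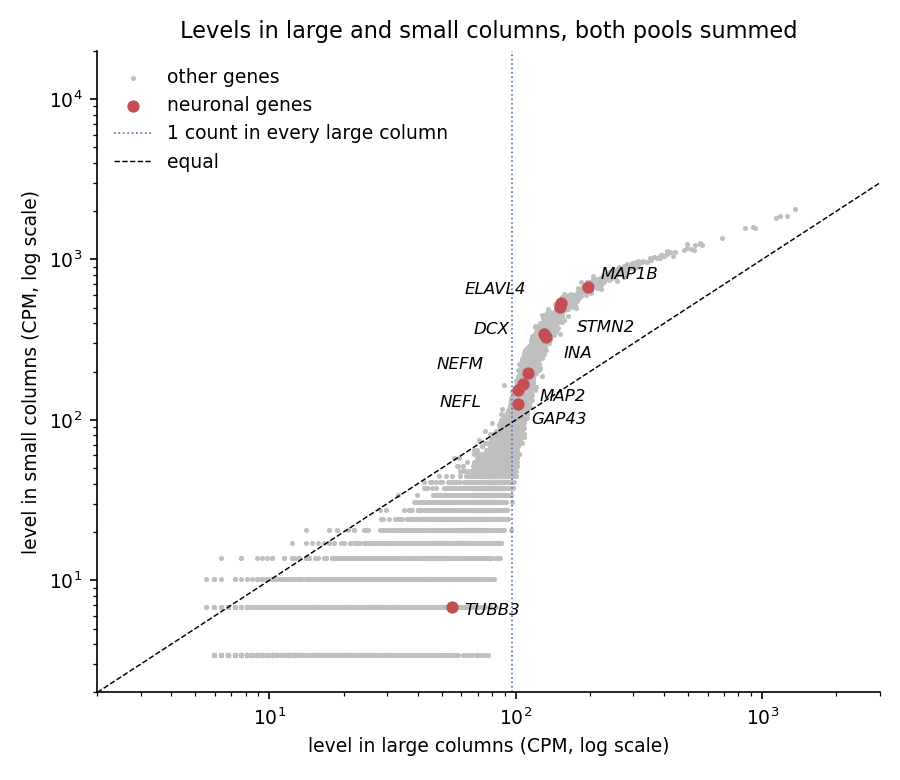
Level of each gene in the large columns (horizontal, CPM, log scale) against the small columns (vertical, CPM, log scale), both pools summed, for genes that passed the filter and had a count in both classes; the 10 neuronal genes are named. The cloud of genes turns steeply upward near the level of 1 count in every large column, 96.1 CPM (dotted line). Of the 10 genes 9 lie above that level, as do 13.5% of all 25693 genes, while TUBB3 lies below the line of equal levels.

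Counts of single genes per column were read in the same classes. In the large columns 9 of the 10 genes were seen in at least 109 of the 113 columns of each pool, as were 9.90% of all 25693 genes. MAP1B, ELAVL4, STMN2 and INA were seen in every large column of both pools, as were 3.30% of all 25693 genes. TUBB3 was seen in 66 of 113 large ethanol columns, or 58.4% (exact Clopper-Pearson interval 48.8 to 67.6), and in 63 of 113 in Nutlin-3, or 55.8% (46.1 to 65.1). No column had more than 1 count of TUBB3.

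Most large columns held a single count of a gene they contained. GAP43 had exactly 1 count in 99 of the 113 ethanol columns and in 102 of those of Nutlin-3, and NEFL in 101 and 102. MAP2 had 1 count in 95 and 100 columns and NEFM in 90 and 96. Counts of 2 or more were the rule only for MAP1B, in 74 ethanol and 69 Nutlin-3 columns, with a highest count of 6 and 7. STMN2 had 2 or more in 48 and 46 columns and ELAVL4 in 45 and 45, with a highest count of 8 for ELAVL4 in Nutlin-3. The median large column held 13 counts of the 10 genes together in both pools, ranging from 9 to 24 under ethanol and from 8 to 31 under Nutlin-3.

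The small columns separated the genes by how often they were seen. MAP1B was found in 92 of 137 small ethanol columns, or 67.2% (58.6 to 74.9), and in 89 of 137 in Nutlin-3, or 65.0% (56.4 to 72.9). STMN2 was seen in 70 and 69 columns and ELAVL4 in 67 and 81. DCX was seen in 42 ethanol columns, 30.7% (23.1 to 39.1), and 57 Nutlin-3 columns, 41.6% (33.2 to 50.3), and the intervals overlapped.

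INA was seen in 43 and 50 small columns. The neurofilament genes NEFM and NEFL were seen in 33 and 24 and in 20 and 24, and MAP2 in 28 and 21. GAP43 was seen in 25 small ethanol columns, 18.2% (12.2 to 25.8), and in 12 Nutlin-3 columns, 8.76% (4.61 to 14.8), with overlapping intervals. TUBB3 was seen in 2 ethanol and 0 Nutlin-3 columns, and 0 of 137 allows a share of up to 2.19%, or 21.3 CPM, by a floor of 3 counts (2.66% and 26.2 CPM by the exact two-sided limits). In each pool the median small column contained 3 of the 10 genes and the highest 8, and 12 ethanol and 14 Nutlin-3 columns contained none of them.

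**Figure D3:**
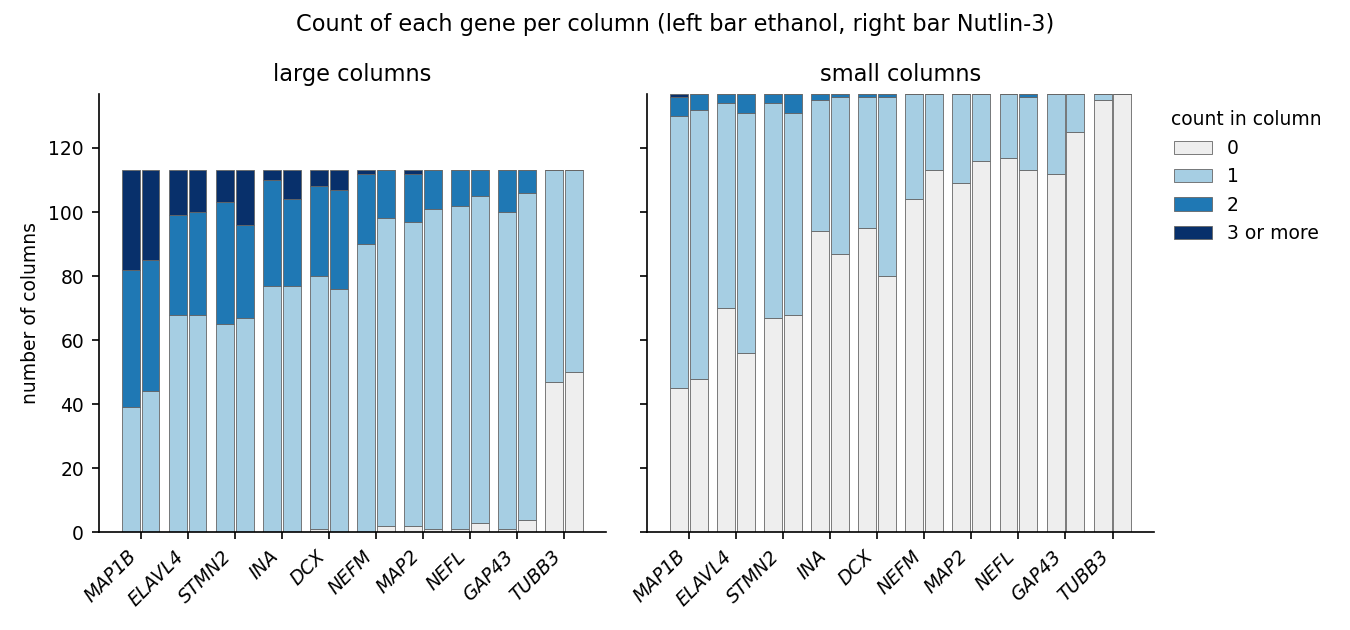
Number of columns (vertical) by the count of each gene in them, for the 113 large and 137 small columns of each pool; the left bar of each pair is ethanol and the right bar Nutlin-3. In large columns nearly every bar starts at 1 count apart from TUBB3, which is missing from 47 ethanol and 50 Nutlin-3 columns, and in small columns the share without the gene grows from MAP1B to TUBB3.

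Columns were also thinned to an equal depth of 700 human counts, which 194 columns of the ethanol pool and 187 of the Nutlin-3 pool reached and 56 and 63 did not. MAP1B was then seen in 25.3% of columns with ethanol (19.3 to 31.98) and in 25.7% with Nutlin-3 (19.6 to 32.5). ELAVL4 was seen in 23.2% and 20.9%, STMN2 in 19.1% and 21.4%, INA in 18.04% and 17.1% and DCX in 15.5% and 17.6%. GAP43 was seen in 9.79% (6.0 to 14.9) and 5.88% (2.97 to 10.3), and TUBB3 in 1 and 3 columns. The intervals of the pools overlapped for each of the 10 genes at this depth. At 350 counts per column they overlapped for 9 of 10 and not for DCX, and the share of all genes without overlap was not computed. DCX was seen there in 9 of 241 ethanol columns, 3.73% (1.72 to 6.97), against 29 of 231 under Nutlin-3, 12.55% (8.57 to 17.5). Among small columns it was seen in 4.69% (1.74 to 9.92) against 23.7% (16.4 to 32.4). These shares come from 1 random draw of counts. The expected shares of DCX over all draws, computed after that draw was seen, were 6.74% and 9.81% at 350 counts and 13.8% and 17.9% at 700. Among small columns the expected shares of DCX were closer than in the draw at 350 counts, 8.80% and 14.6%, and were 20.8% and 30.7% at 700. Without thinning, over 250 columns with median depths of 2287 human counts in ethanol and 2010.5 in Nutlin-3, the shares ran from 27.2% and 25.2% for TUBB3 to 82.0% and 80.8% for MAP1B. No cells lacking these genes were present to give the background from free RNA.

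The question of the design, whether Nutlin-3 and ethanol cells differ, was put to each gene on the pooled sums with TMM scaling. The log2 fold changes of the 10 genes lay between -0.18 and 0.20 with a median of 0.00, 5 above 0 and 5 below. None (0 of 10) reached 0.5 in either direction, where 17% of the 14830 genes that passed the filter on low counts and 1.98% of the 8844 whose mean level was 50 CPM or more did. All 10 passed that filter, and all but TUBB3 (49.5 CPM) reached a mean of 50 CPM. The median over the 8844 genes was -0.01, and their central 95% lay between -0.37 and 0.37.

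DCX had the highest value, from 193 counts in ethanol against 214 in Nutlin-3, giving a log2 fold of 0.20 with a 95% counting interval of -0.09 to 0.48. ELAVL4 had 246 and 269 counts and a value of 0.18 (-0.08 to 0.43). INA had 197 and 212 counts and a value of 0.15 (-0.14 to 0.44), and STMN2 246 and 257 counts and 0.11 (-0.15 to 0.37). Each of these intervals included 0.

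GAP43 had the lowest value, from 150 counts in ethanol against 128 in Nutlin-3, a log2 fold change of -0.18 (-0.53 to 0.17). NEFM had 170 and 150 counts and a value of -0.13 (-0.46 to 0.19). NEFL, the gene next to it on chromosome 8, had 143 counts in both pools and a value of 0.05 (-0.30 to 0.39). The neurofilament subunits therefore had values of both signs, none beyond its counting interval.

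MAP1B had a log2 fold change of -0.04 (-0.27 to 0.18), the narrowest interval of the set. That of MAP2, from 156 and 145 counts, was -0.06 (-0.40 to 0.28). TUBB3 had 68 and 63 counts, a value of -0.06 and the widest interval, -0.58 to 0.45. A difference of 0.5 lay within the interval of TUBB3, as it did within that of GAP43, and was not excluded by either. Such bounds hold for these pools and do not show that the treatments act alike. With ERCC counts as the library size, 2989 in ethanol and 4007 in Nutlin-3, every value was lower. The medians over all genes and over the 10 genes were then both -0.47. Each pool mixes libraries of 1000-fold and 10000-fold ERCC dilution in unknown parts. A difference in RNA content therefore cannot be told apart from that mix. Under ERCC scaling the values of DCX, ELAVL4, INA, STMN2 and NEFL changed sign, and each remained within 0.20 of the shift over all genes.

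Within the classes of columns the values stayed small in the large class and spread in the small one. In the large columns they lay between -0.08 for NEFM and 0.12 for INA, and 0 of 10 reached 0.5, as 16.3% of the 14759 genes tested there did. With most of these columns at exactly 1 count of a gene, as in 99 and 102 of 113 for GAP43, small values there do not show that the levels in the cells were alike. In the small columns DCX had 43 counts in ethanol against 58 in Nutlin-3, a log2 fold change of 0.57 (-0.02 to 1.17). ELAVL4 had 70 and 87 counts there and a value of 0.45 (-0.02 to 0.93).

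GAP43 had 25 counts in the small ethanol columns and 12 in the small Nutlin-3 columns, a value of -0.89 (-2.05 to 0.13). DCX and GAP43 were the only genes of the 9 that passed the filter in the small columns to reach 0.5, where 36.4% of the 4762 genes did. CDKN1A, read in the same way, had 67 and 143 counts in the large columns and 3 and 45 in the small ones. MDM2 had 227 and 377 in the large columns and 88 and 127 in the small ones. The part of the class of columns in any of these values was not tested.

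**Figure D4:**
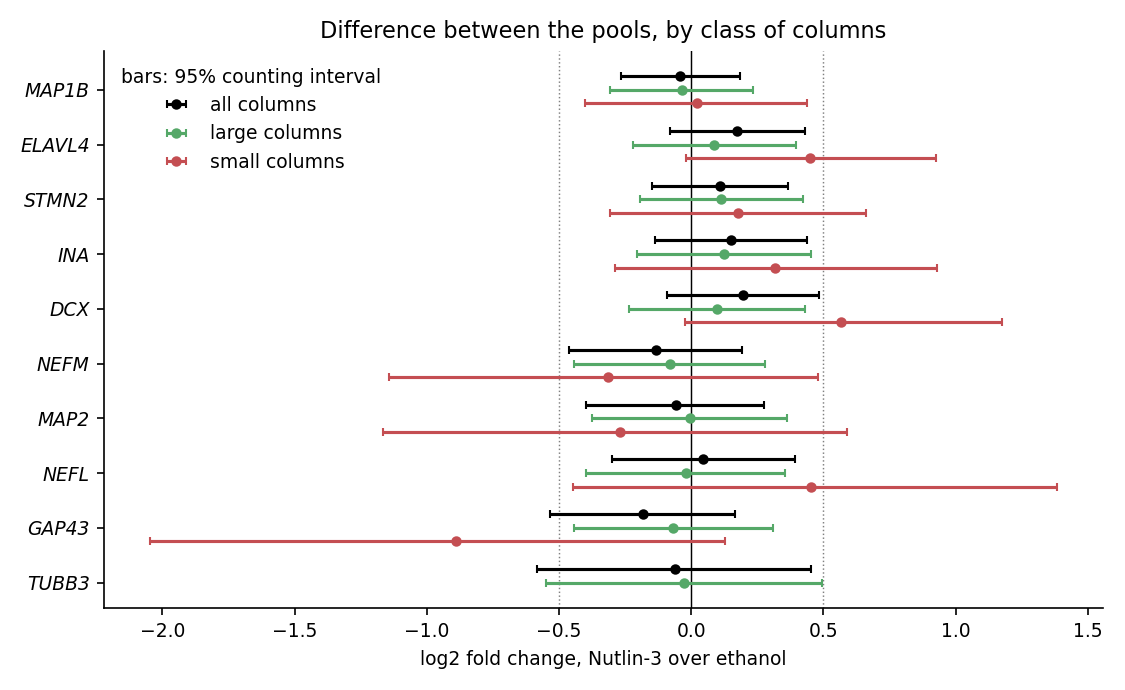
Nutlin-3 against ethanol as log2 fold change (horizontal) for each of the 10 genes with its 95% counting interval, in all columns, in large columns and in small columns; dotted lines mark 0.5 in either direction, and TUBB3 in small columns is left out, having 2 and 0 counts. All intervals include 0, and the points spread furthest in the small columns, from -0.89 for GAP43 to 0.57 for DCX.

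The same comparison was made for 8 lists of related genes. Of 111 listed genes the table held 107, of which 102 passed the filter, and 8 of these, or 7.84%, reached a log2 fold of 0.5, 5 higher and 3 lower in Nutlin-3, against 17% of all genes that passed. Among the 87 whose mean level was 50 CPM or more the count was 2, or 2.30%, against 1.98% of all such genes.

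The other tubulin genes had a median log2 fold change of -0.21, with 10 of 13 below 0 and 1 past 0.5. TUBA1B, an alpha-tubulin of most cells, had 487 counts in ethanol against 371 in Nutlin-3, a value of -0.35 (-0.54 to -0.15). TUBA1A, the main alpha-tubulin of neurons, had 466 and 381 counts and -0.24 (-0.44 to -0.05). TUBB4B had 219 and 161 counts and -0.40 (-0.70 to -0.10). STMN1, the stathmin of dividing cells and a paralogue of STMN2, had 540 and 413 counts and -0.34 (-0.53 to -0.15), while STMN3 had 126 and 141 counts and 0.21 (-0.15 to 0.57). Of the 11 tubulin genes whose mean level was 50 CPM or more, 5 had intervals below 0, 0 above, and 6 included 0, among them TUBB2B at 0.03 (-0.26 to 0.32) and TUBB6 at 0.17 (-0.21 to 0.56), chosen after their values were seen. The interval of STMN1 also lay below 0, as did those of 2.17% of all genes at that level.

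The 8 other intermediate filament genes that passed had a median of -0.09. VIM had 276 and 277 counts and NES, a filament gene of neural progenitors, 208 and 191, with values of 0.05 (-0.19 to 0.30) and -0.08 (-0.37 to 0.21). SYNM had the furthest value of the list among genes of at least 50 CPM, with 81 and 52 counts and -0.59 (-1.12 to -0.07). The 17 other microtubule-associated protein genes had a median of 0.07, with 10 above 0 and 7 below. MAPRE1, a protein of growing microtubule ends, had 191 and 156 counts and -0.24 (-0.56 to 0.07), and CAMSAP2, of the minus ends, had 151 and 153 counts and 0.07 (-0.27 to 0.40). MAP1A, a paralogue of MAP1B, had 103 and 74 counts and -0.43 (-0.88 to 0.01).

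Growth cone genes had a median of -0.05 over 20 genes. RTN4 had 295 and 238 counts with a value of -0.26 (-0.52 to -0.01), MARCKS 252 and 236 counts with -0.05 (-0.31 to 0.21), and ROBO2, a receptor for axon guidance, 86 and 102 counts with 0.29 (-0.14 to 0.72). Axonal transport genes had a median of 0.02 over 15 genes with 0 past 0.5 and a range of -0.23, for the kinesin KIF21A, to 0.17. KIF5B had 198 and 195 counts and 0.02 (-0.27 to 0.32), and KIF1B 187 and 170 counts and -0.09 (-0.40 to 0.22). Synaptic vesicle genes had a median of 0.06 over 15 genes. SNAP25, a protein of vesicle fusion, had 176 and 157 counts and -0.12 (-0.44 to 0.20), SYT1, its calcium sensor, 151 and 177 counts and 0.28 (-0.05 to 0.60), and RAB3A 80 and 106 counts and 0.45 (0.02 to 0.89).

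The neuronal RNA-binding protein list, which holds the paralogues of ELAVL4, had a median of 0.07 over 11 genes. Its most abundant members, RBFOX2 and PTBP1, were at 0.07 (-0.22 to 0.35) and -0.10 (-0.40 to 0.21). CELF3 had 58 counts in ethanol against 98 in Nutlin-3, a log2 fold change of 0.80 (0.32 to 1.30), the furthest of any gene of at least 50 CPM in the 8 lists. No list was tested as a set.

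**Figure D5:**
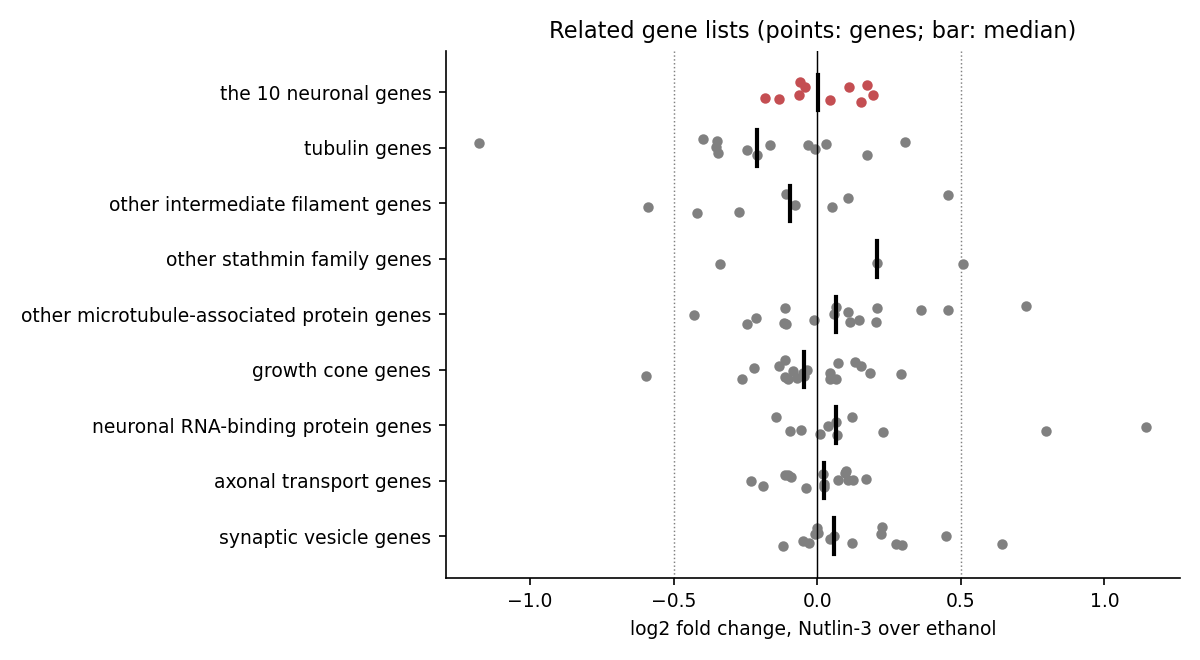
Nutlin-3 against ethanol as log2 fold change (horizontal) for the 10 neuronal genes and the genes of 8 related lists that passed the filter, with a bar at each median and dotted lines at 0.5 in either direction. The 10 genes lie between -0.18 and 0.20, and the tubulin list has the lowest median, -0.21.

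Some of these counts are uncertain because genes overlap. Whether the counting used strand is not given in the sources used here. AF106564.1, annotated antisense to NEFM, had 63 counts in ethanol against 52 in Nutlin-3, and AC107373.2, antisense to NEFL, had 25 and 20, and these cannot be told apart from reads of their partners. AC092143.1, which overlaps TUBB3 on the same strand, had 1 and 0 counts. TUBB3 also shares coding sequence with other beta-tubulin genes. In GRCh38 by GENCODE release 29, which need not be the authors' build, NEFM (ENSG00000104722) lies on chromosome 8 at 24913012 to 24919098, NEFL (ENSG00000277586) at 24950955 to 24957110 and STMN2 (ENSG00000104435) at 79610814 to 79666175. TUBB3 (ENSG00000258947) lies on chromosome 16 at 89921392 to 89938761, DCX (ENSG00000077279) on X at 111293779 to 111412429, GAP43 (ENSG00000172020) on 3 at 115623324 to 115721490 and MAP1B (ENSG00000131711) on 5 at 72107234 to 72209570. INA (ENSG00000148798) lies on 10 at 103277163 to 103290351, ELAVL4 (ENSG00000162374) on 1 at 50048014 to 50203786 and MAP2 (ENSG00000078018) on 2 at 209424058 to 209734118.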

How the data were processed

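Libraries were made with the SureCell WTA 3' kit on the ddSeq device from polyadenylated RNA, per the labels' protocols. The authors deposited one table of raw counts, with 25693 Ensembl genes, 62 ERCC species and 500 columns, which hold from 253 to 13502 counts. Not given in the sources used here are the aligner, molecular tags, genome build, annotation and the choice of cells. Columns ending in treated were taken as Nutlin-3, since the label uses that word, and those ending in untreated as ethanol.

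Columns name no library, so the fit on 4 library sums could not be made and no test was run. Deposited counts were summed per treatment. Genes were filtered (edgeR 4.0.16, minimum count 10, R 4.3.3) and scaled by TMM, with factors of 0.9997 for Nutlin-3 and 1.0003 for ethanol. Log2 fold changes used 0.5 added counts, with exact binomial intervals, and their computation was tested on simulated data. CPM are counts over human counts times 1000000, without TMM. Doublets were not called, all cells being of 1 line.

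Symbols came from GENCODE release 29 and matched 25602 of 25693 identifiers. The members, the lists and the split at 4000 counts were chosen with earlier results of these data known. The text names the 10 members, CDKN1A and MDM2, and from each list the 2 genes of highest count and the gene of furthest fold with at least 50 CPM, and the 5 genes nearest in level to MAP1B. The lists are tubulins, other intermediate filaments, other stathmins, other microtubule-associated proteins, growth cone, neuronal RNA-binding proteins, axonal transport, synaptic vesicles and 4 lists of cell type markers. Alternatives were DESeq2 1.42.0 size factors, no filter, ERCC scaling, large or small columns, columns with unshared names, columns counted once per gene, and thinning of the deeper pool or of columns to 700 or 350 counts.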

Additional observations from a re-analysis of the deposited data

How the results depend on the processing

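No paired analysis was possible because no column name tells its library, so that a treatment is 1 pool, and leaving out each library was not run for the same reason. The median log2 fold change of the 10 genes was 0.00 and lay between -0.06 and 0.10 under 7 of the 8 alternatives run. It was -0.47 with ERCC counts as the library size, which subtracts 1 constant from every gene and rests on an unknown mix of ERCC dilutions in each pool. The number of genes past a log2 fold of 0.5, 0 in the full data, was 5 under ERCC scaling, 3 in small columns alone (DCX, GAP43 and TUBB3, the last from 2 and 0 counts) and 5 without columns whose name occurs in both treatments. Of all genes tested in small columns 36.4% of 4762 reached it. Under ERCC scaling the median over all genes was also -0.47. The share of all genes past 0.5 was not computed under ERCC scaling or without shared names. The setting without shared names left 31 columns per pool, with 19805 and 23060 human counts. There 3 of the 10 genes passed the filter, and NEFM had 9 counts in ethanol against 1 in Nutlin-3. Of 80 values of single genes, 61 stayed within the counting interval of the first value and 19 left it, all 19 under these 3 settings, and 9 changed sign, 5 of them under ERCC scaling. The cause was not tested. Shares of columns moved with depth: they ran from 1.25% to 16.6% at 350 counts and from 25.2% to 82.0% without thinning. At 350 counts DCX was the 1 gene of the 10 whose intervals did not overlap between the pools. The share of all genes without overlap was not computed. The shares expected over all draws, an alternative chosen after seeing the data, ran from 2.19% to 25.3% at 700 counts. All 20 lay within the intervals of the single draw. At 350 counts the expected shares ran from 0.888% to 17.4%. Levels ran from 54.3 to 198 CPM in large columns, from 0 to 673 CPM in small columns and from 53.2 to 170.4 CPM of detections when each column was counted once per gene. With 131 counts for TUBB3 to 656 for MAP1B over both pools, the intervals of the log2 fold changes were 0.45 to 1.03 wide.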

Other observations

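Genes of the related lists that reached a log2 fold of 0.5 were few, and some of those with fewer than 50 CPM are named here after their values were seen. NOVA2, a splicing regulator of neurons, had 17 counts in ethanol against 37 in Nutlin-3, giving a log2 fold of 1.15 with a 95% counting interval of 0.30 to 2.09. MAP7, a microtubule-associated protein that recruits kinesin, had 31 and 50 counts and 0.73 (0.06 to 1.43). STMN4 had 18 and 25 counts and 0.51 (-0.41 to 1.48). Lower in Nutlin-3 were TUBA4A, with 17 and 7 counts and -1.18 (-2.75 to 0.11), and PLXNA2, with 19 and 12 counts and -0.60 (-1.79 to 0.50). Among all genes that passed the filter 17% reached such a fold. PRPH, the intermediate filament of peripheral neurons, had 103 and 137 counts and 0.46 (0.08 to 0.84), the highest value of the filament genes. It too was named after its values were seen.

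Large columns with a count of TUBB3 had somewhat higher totals than those without. The 66 large ethanol columns with a TUBB3 count had a median total of 10902 counts and the 47 without one 10164, and in Nutlin-3 the 63 with a count had 10906 and the 50 without one 10262.5. All 66 and all 63 columns with TUBB3 also held the other 9 genes, as did 43 of the 47 and 42 of the 50 without it.

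The 5 named genes nearest to MAP1B by level, over 4 values (each treatment in large and in small columns, log2 CPM), were PPIA, LUC7L3, HAND2, LINC01089 and H3F3B, at Euclidean distances of 0.02, 0.09, 0.10, 0.11 and 0.16. PPIA, the nearest, had 238 and 101 counts in the large and small ethanol columns and 223 and 94 in those of Nutlin-3. HAND2, a transcription factor of the noradrenergic lineage, had 238 and 104 and 212 and 97 in the same order. MAP1B had 236 and 102 and 224 and 94.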
